A study of Homo sapiens with 10 samples.

Results

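LOC400043 siRNA 1 was set against scramble in HEK-293 cells, replicate by replicate and gene by gene. HEK-293 is an immortal line of human embryonic kidney cells, and LOC400043 is a long noncoding RNA (lncRNA) gene of chromosome 12 that RefSeq now names LINC02381. The comparison rests on 4 of the 10 arrays of the series, 2 biological replicates with siRNA 1 and 2 with scramble, and on all 18480 genes of the table that holds them. The other arrays are a pair with LOC400043 siRNA 2 and 2 pairs with siRNAs against the lncRNA LINC00324. Every group is the same cell line in the same medium with serum, has no other treatment or genotype in the labels, and received its siRNA by transient transfection with the lipid reagent RNAiMax at a final 10 nM. Scramble, the control, is a transfected siRNA too, so no untreated cells enter any difference. Expression was measured in total RNA on Affymetrix HuGene-1_0-st arrays, which place several probes along each gene, and all levels are log2 values.

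A small interfering RNA (siRNA) is a short RNA duplex, one strand of which is taken up by an Argonaute protein and guides it to RNAs with complementary sequence, which are then cut. The same complex also holds microRNAs, which pair with their targets mainly through a short seed near the 5′ end and lower the level or the translation of those RNAs. For that reason an siRNA is usually tested beside another of different sequence against the same RNA and beside a scrambled one. The study behind the series screened lncRNAs and circular RNAs for binding of microRNAs (sponges), and the comparison asks what this siRNA does to the expression of all other genes.

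Array medians lay between 7.58 and 7.59 with siRNA 1 and between 7.59 and 7.62 with scramble. The difference between the replicates of a group had a standard deviation (SD) over genes of 0.13 with siRNA 1 and 0.19 with scramble, and 6 and 3 genes differed at least 2-fold between the replicates of those groups. LOC400043 spans chr12:54126071-54132843 on assembly GRCh38.p14 and has 0 probe sets in the table, so its silencing was not analysed here. A change in RNA per cell and a change in the make-up of the culture cannot be told apart in these bulk samples.

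With siRNA 1 the cells held less RNA for FLNA and CNN2, a pair of actin-binding proteins, for AP1B1 and AP2B1, the large beta subunits of the clathrin adaptors, and for the transcription factor gene JUN. They held more RNA for SYT11, a vesicle protein, and SLC4A8, a bicarbonate transporter. Of the 18480 genes, 749 (4.05%) rose and 1379 (7.46%) fell at an adjusted p under 0.05 by limma, 2128 (11.5%) in all. In each of those 2128 genes both siRNA 1 arrays lay outside the range of both scramble arrays, as they did in 54.9% of all genes. Changes of at least 1.5-fold were found for 156 genes that rose and 289 that fell, and changes of at least 2-fold for 9 and 30. The median difference over all genes was 0.03 (log2). Leaving out an siRNA 1 array, an siRNA 2 array or scramble replicate 2 lowered the number of calls over all genes. Lower list counts in those fits, given below, are to be read beside this general loss. The counts depend on the arrays fitted: 114 genes rose and 299 fell without siRNA 1 replicate 1, 80 and 177 without replicate 2, 599 and 822 without scramble replicate 2, and 427 and 892 without either array of siRNA 2.

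Each replicate was also set against a scramble array of its own, so that the 2 differences share no array. Replicate 1 minus scramble replicate 1 and replicate 2 minus scramble replicate 2 had a Pearson correlation of 0.67 across the 18480 genes, which share arrays and are not independent replicates. At least 2-fold lower were 26 genes in the replicate 1 difference and 45 in the replicate 2 difference, 25 of them in both. At least 2-fold higher were 15 and 10, with 8 in both, and no gene passed 2-fold in opposite directions. With the scramble arrays exchanged, the correlation was 0.53, the falls were 50 and 28 with 23 in both, and the rises were 13 and 18 with 7 in both.

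**Figure D1:**
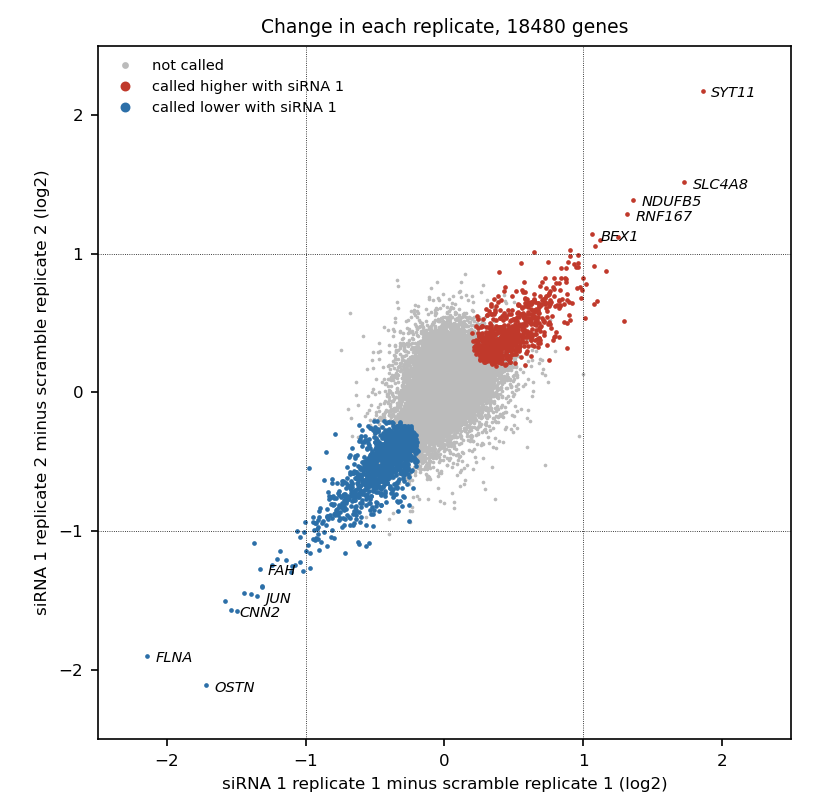
Each point is 1 of 18480 genes, with siRNA 1 replicate 1 minus scramble replicate 1 on the horizontal axis and siRNA 1 replicate 2 minus scramble replicate 2 on the vertical axis (both log2), coloured by limma's call and with dotted lines at a 2-fold change. FLNA and OSTN lie farthest to the lower left and SYT11 farthest to the upper right, and the 2-fold genes lie in the lower left and upper right corners.

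FLNA encodes filamin A, a large protein that crosslinks actin filaments and ties them to membrane receptors. Its probe set of 52 probes covers 153576894 to 153602994 of chromosome X (minus strand) in the table's coordinates, whose build is not given in the sources used here. FLNA read 7.69 and 7.89 with siRNA 1, against 9.83 and 9.79 with scramble. Both siRNA 1 arrays lay far below both scramble arrays, and the replicates of a group lay close together. The difference was -2.02 (log2, SE 0.084, adjusted p = 0.000533 by limma), a 4.06-fold fall. FLNC, a filamin of muscle, fell by 0.29 (7.61 and 7.58 with siRNA 1, against 7.91 and 7.87 with scramble, adjusted p = 0.0345 by limma). CNN2, calponin 2, which binds and stabilizes actin filaments, read 7.97 and 7.85 with siRNA 1, against 9.51 and 9.42 with scramble. Its difference was -1.55 (log2, SE 0.073, adjusted p = 0.000548 by limma), a 2.94-fold fall, again without overlap of the groups.

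OSTN, which encodes the secreted peptide osteocrin, read 5.65 and 5.64 with siRNA 1, against 7.37 and 7.75 with scramble. The siRNA 1 arrays were nearly equal, while the scramble arrays lay apart from each other. The difference was -1.92 (log2, SE 0.12, adjusted p = 0.0012 by limma). DDX23, an RNA helicase of the spliceosome, read 8.74 and 8.79 with siRNA 1, against 10.33 and 10.30 with scramble, a difference of -1.55 (log2, SE 0.091, adjusted p = 0.000761 by limma). CILK1, a kinase of the ciliogenesis pathway, read 7.66 and 7.71 with siRNA 1, against 9.11 and 9.15 with scramble, a difference of -1.44 (log2, SE 0.064, adjusted p = 0.000533 by limma). NRN1, a membrane-anchored protein that promotes neurite growth, read 9.89 and 9.79 with siRNA 1, against 11.29 and 11.25 with scramble. Its difference was -1.43, and in none of these genes did an siRNA 1 array reach the level of a scramble array. MAP7D2, a microtubule-associated protein, fell by 1.36 (6.78 and 6.86 with siRNA 1, against 8.10 and 8.26 with scramble), and FAH, the last enzyme of tyrosine breakdown, by 1.30 (8.53 and 8.51 with siRNA 1, against 9.86 and 9.78 with scramble).

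**Figure D2:**
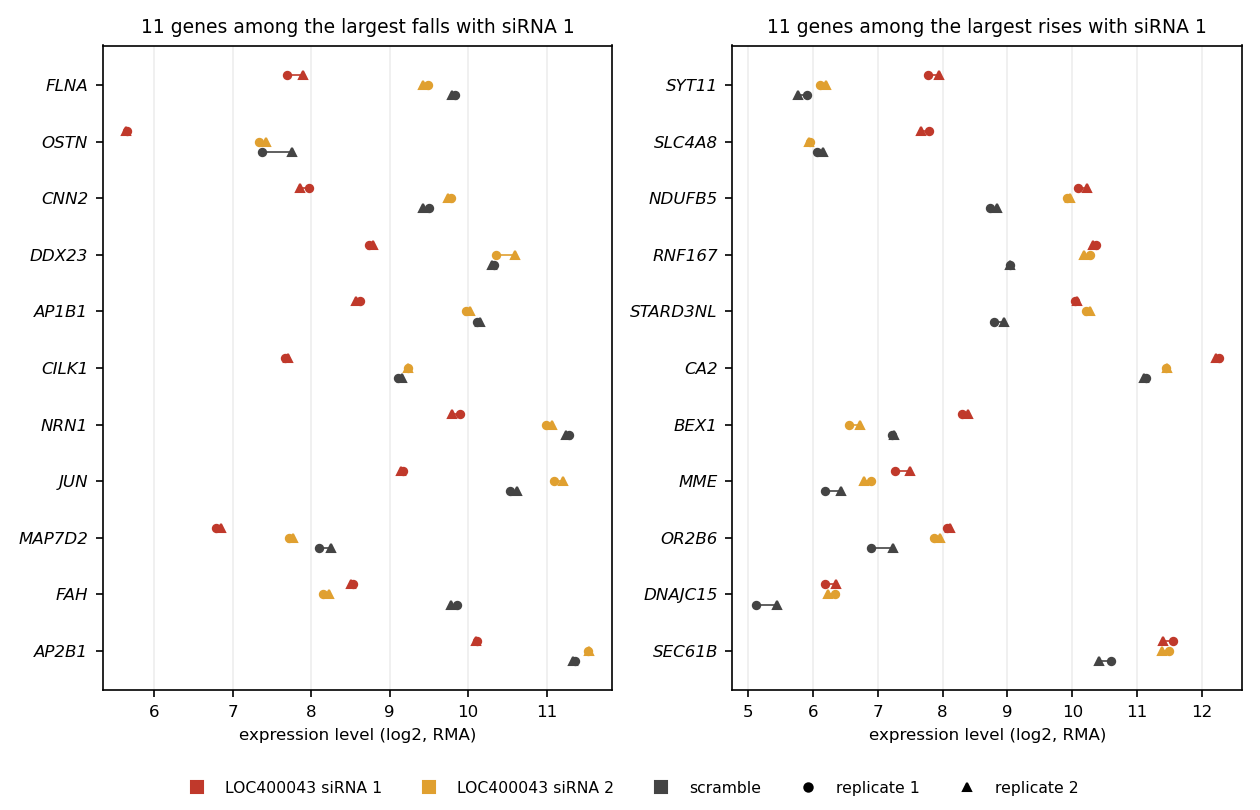
Expression levels (log2, RMA) of 11 genes among the largest falls (left) and 11 among the largest rises (right), with 1 point per array for LOC400043 siRNA 1, LOC400043 siRNA 2 and scramble, and circles and triangles for replicates 1 and 2. The siRNA 1 points of every gene lie on one side of the scramble points, and for AP1B1, CILK1 and SLC4A8 the siRNA 2 points lie near scramble.

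Among rises the largest was that of SYT11, synaptotagmin 11, which acts in vesicle traffic and membrane uptake. SYT11 read 7.77 and 7.94 with siRNA 1, against 5.91 and 5.77 with scramble, a difference of 2.02 (log2, SE 0.089, adjusted p = 0.000533 by limma), a 4.05-fold rise. SLC4A8, which exchanges bicarbonate and sodium for chloride across the membrane, read 7.79 and 7.67 with siRNA 1, against 6.06 and 6.16 with scramble, a difference of 1.62 (log2, SE 0.074, adjusted p = 0.000536 by limma). Both genes lay below the array medians with scramble and above them in each siRNA 1 array. NDUFB5, a subunit of respiratory complex I, read 10.08 and 10.22 with siRNA 1, against 8.72 and 8.84 with scramble. RNF167, a ubiquitin ligase of endosomes and lysosomes, read 10.36 and 10.32 with siRNA 1, against 9.04 and 9.04 with scramble. Their differences were 1.37 and 1.30. STARD3NL, a protein that tethers endosomes to the endoplasmic reticulum, read 10.04 and 10.07 with siRNA 1, against 8.79 and 8.95 with scramble, a rise of 1.18. CA2, a carbonic anhydrase, read 12.26 and 12.21 with siRNA 1, against 11.14 and 11.11 with scramble, a rise of 1.11. BEX1, a small adaptor protein of neurons, read 8.29 and 8.39 with siRNA 1, against 7.23 and 7.25 with scramble, a rise of 1.10, and the groups of all 3 genes stood clear of each other. MME, a membrane peptidase also known as neprilysin, rose by 1.07, the olfactory receptor gene OR2B6 by 1.02, and DNAJC15, a cochaperone of the mitochondrial inner membrane, by 0.99. SEC61B, part of the channel through which proteins enter the endoplasmic reticulum, rose by 0.97. DNAJC15 lost its call without siRNA 1 replicate 2, whereas the other 23 of the 24 genes with the largest changes kept theirs in all 12 alternative settings. The choice of these genes for large changes in the same arrays favours that. For this contrast the fit of the siRNA 1 and scramble arrays alone and the fits without an siRNA 2 array gave the same counts. The 12 settings are therefore not 12 separate checks.

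The fall of AP1B1 and AP2B1 drew attention to the clathrin adaptors, so all subunits of AP-1 and AP-2 are given, a list made after these values were seen. The AP-1 and AP-2 adaptors are complexes of large, medium and small subunits that load cargo into clathrin-coated vesicles, AP-1 at the Golgi and endosomes and AP-2 at the plasma membrane. This AP-1 is unrelated to the transcription factor of the same name. AP1B1, a gene of chromosome 22 (minus strand, 29723669 to 29784572), read 8.63 and 8.57 with siRNA 1, against 10.12 and 10.15 with scramble, a difference of -1.53 (log2, SE 0.065, adjusted p = 0.000533 by limma). AP2B1, on the plus strand of chromosome 17 from 33914282 to 34053436, read 10.12 and 10.10 with siRNA 1, against 11.36 and 11.34 with scramble, a difference of -1.24 (log2, SE 0.062, adjusted p = 0.000604 by limma). Of all 13 measured subunits, 3 fell and 1 rose (30.8%, against 11.5% of all genes). That share includes AP1B1 and AP2B1, which prompted the list, so it is no result about the adaptors as a set. The third to fall was AP1G2, a gamma subunit, at -0.36, and AP1S1, a small subunit, rose by 0.49. The large alpha subunits stood at 0.023 (AP2A1) and -0.22 (AP2A2), the medium subunits at -0.22 (AP1M1), -0.042 (AP1M2) and -0.30 (AP2M1), and none of these passed the test. AP1G1 stood at 0.092 and the small subunits AP1S2, AP1S3 and AP2S1 at -0.45, 0.21 and -0.16, likewise without a call. The calls of AP1G2 and AP1S1 were absent once either siRNA 1 array was left out.

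Genes of the actin cytoskeleton fell or stayed without a call. Their list, like those that follow, was chosen with earlier results of these data known, so its share is no independent evidence. Of 29 measured actin crosslinkers and filament genes, 8 fell and 0 rose, and the list median was -0.11 (-0.12 in replicate 1 and -0.16 in replicate 2, each against the scramble mean), beside 0.03 over all genes. Called members made up 27.6% of this list, against 11.5% of all genes. The falls numbered 4 without siRNA 1 replicate 1 and 3 without siRNA 1 replicate 2. After FLNA and CNN2 came VIM, vimentin, an intermediate filament protein of mesenchymal cells, which read 10.59 and 10.62 with siRNA 1, against 11.32 and 11.44 with scramble, a difference of -0.77 (log2, SE 0.071, adjusted p = 0.00279 by limma). TAGLN2, a calponin-like protein, fell by 0.49, the myosin light chain gene MYL6 by 0.42, and ZYX, zyxin of focal adhesions, by 0.36. In the annexin family, proteins that bind membranes when calcium rises, 2 of 10 measured members (20%) fell. These were ANXA7 at -0.49 (adjusted p = 0.00765 by limma) and ANXA1 at -0.36 (adjusted p = 0.0314 by limma). The other annexins did not pass the test: ANXA3 stood at -0.33, ANXA6 at -0.28, ANXA11 at -0.21, ANXA4 at -0.14, ANXA2 at -0.12, ANXA5 at -0.086, ANXA10 at 0.016 and ANXA13 at 0.098. The annexin falls numbered 0 without siRNA 1 replicate 1, 0 without siRNA 1 replicate 2, 1 without either siRNA 2 array and 1 without scramble replicate 2.

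Adhesion genes moved both ways. Of 19 measured integrin and focal adhesion genes, 4 rose and 2 fell, 31.6% in all, against 11.5% of all genes. CAV1, a caveolin that coats flask-shaped membrane pits, read 8.89 and 8.89 with siRNA 1, against 8.10 and 8.19 with scramble, a difference of 0.74 (adjusted p = 0.00276 by limma). Its relative CAV2 read 7.996 and 7.93 with siRNA 1, against 7.33 and 7.41 with scramble, a difference of 0.59 (adjusted p = 0.00439 by limma). ITGAV, the alpha V integrin subunit that binds vitronectin and fibronectin, rose by 0.57 and LIMS1, an adaptor of the integrin-linked kinase, by 0.50. ILK, that kinase, fell by 0.31 and the integrin subunit ITGB5 by 0.27. The rises numbered 2 without siRNA 1 replicate 1, and both falls were lost on leaving out any 1 of the 6 arrays. Of 30 extracellular matrix genes, 7 fell and 2 rose (30%), with a median of -0.013. LAMA4, the laminin alpha 4 chain of basement membranes, read 6.81 and 6.92 with siRNA 1, against 7.85 and 7.96 with scramble, a difference of -1.04 (log2, SE 0.073, adjusted p = 0.0014 by limma). LAMB1, the beta 1 chain, fell by 0.47, NID1, nidogen, which links laminin to collagen IV, by 0.50, and FN1, fibronectin, by 0.48. LAMC1, the gamma 1 chain, rose by 0.63 (10.08 and 10.07 with siRNA 1, against 9.40 and 9.48 with scramble). The matrix genes that fell numbered 2 without siRNA 1 replicate 1 and 1 without siRNA 1 replicate 2, and those that rose 1 without siRNA 1 replicate 1, 0 without siRNA 1 replicate 2, 1 without either siRNA 2 array and 1 without scramble replicate 2.

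Several genes that make or import lipid fell, each by a small amount. Sterol synthesis and fatty acid synthesis are switched on by the SREBP transcription factors, products of SREBF2 and SREBF1, which are held in the endoplasmic reticulum by the INSIG proteins when sterols are plentiful. Of 24 cholesterol synthesis and uptake genes, 9 fell and 0 rose, and of 19 fatty acid and phospholipid synthesis genes, 9 fell and 1 rose, against 7.46% and 4.05% of all genes. The medians were -0.23 (-0.23 in replicate 1 and -0.24 in replicate 2) and -0.23 (-0.25 in replicate 1 and -0.26 in replicate 2). INSIG1 read 9.87 and 9.84 with siRNA 1, against 10.77 and 10.74 with scramble, a difference of -0.90 (log2, SE 0.064, adjusted p = 0.0014 by limma). IDI1, LSS and TM7SF2, enzymes that make the isoprenoid unit, close the sterol ring and reduce it, each fell by 0.55. FDPS, which joins isoprenoid units, fell by 0.42 and SREBF2 itself by 0.44 (9.32 and 9.28 with siRNA 1, against 9.73 and 9.75 with scramble). In the fatty acid list ISYNA1, which makes inositol from glucose 6-phosphate, read 9.67 and 9.55 with siRNA 1, against 10.43 and 10.29 with scramble, a difference of -0.75. The desaturase genes FADS1 and FADS2 fell by 0.46 and 0.40, SREBF1 by 0.43, PCYT2 of phosphatidylethanolamine synthesis by 0.46 and the elongase ELOVL5 by 0.38. ME1, an enzyme that supplies NADPH, rose by 0.39, a call that held on leaving out 1 array only where that array was scramble replicate 2. The cholesterol genes that fell numbered 1 without siRNA 1 replicate 1 and 1 without siRNA 1 replicate 2, and the fatty acid genes 2 without siRNA 1 replicate 1, 1 without siRNA 1 replicate 2 and 5 without scramble replicate 2.

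The sterol regulatory element was searched for, as TCACNCCAC on both strands, in RefSeq promoters (GRCh38.p14) from 250 bases before to 50 after each start. It was present in 1 of 18 cholesterol genes with a promoter in the table and in 0 of 18 fatty acid genes, against 1.12% of 34943 promoters. The list counts are genes with a match in any of their promoters, and the percentage counts single promoters, so the units differ. The match was in SREBF2, shown because its own transcript fell, at chr22:41832952-41833000 on the plus strand, 133 bases before the start, with the motif in capitals:
SREBF2: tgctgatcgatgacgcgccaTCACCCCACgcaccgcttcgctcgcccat

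**Figure D3:**
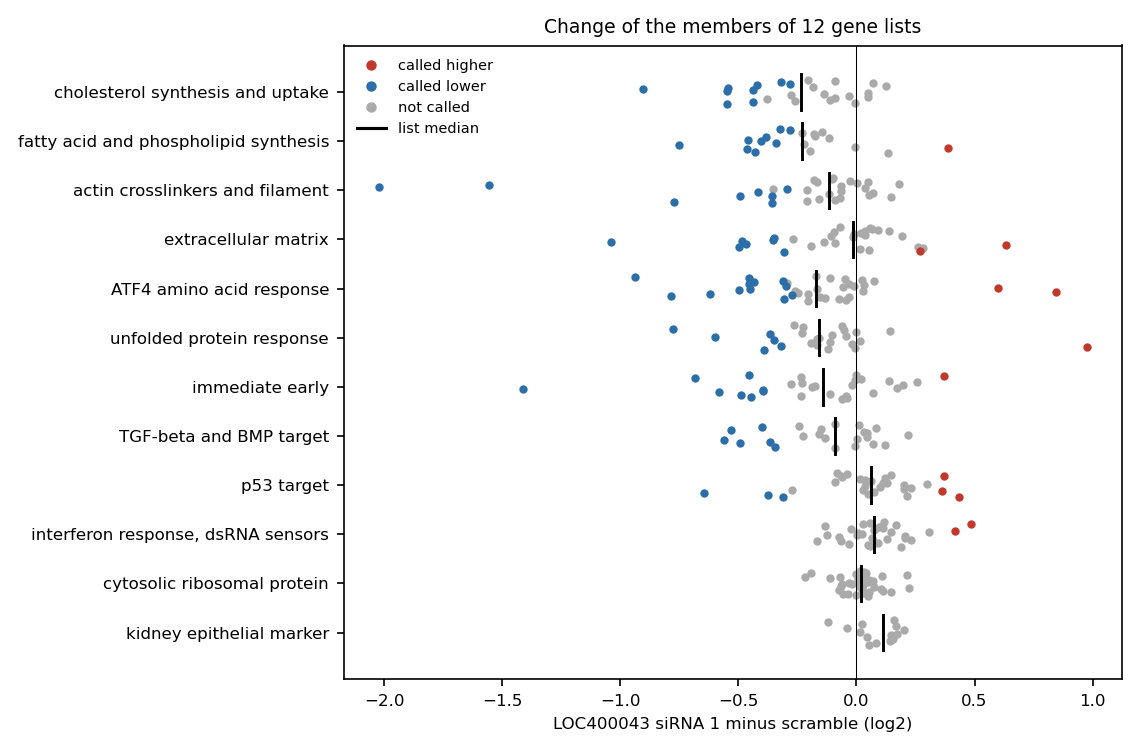
Log2 difference between siRNA 1 and scramble (horizontal axis) for every measured member of 12 gene lists (rows), coloured by limma's call, with a black bar at each list's median. The cholesterol and fatty acid medians lie at -0.23 and -0.23, the ATF4 median at -0.17, and the ribosomal protein median at 0.02 with no called member.

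Immediate early genes encode transcription factors and phosphatases that are switched on within minutes of a growth signal or stress, before any new protein is made. Of 28 measured, 8 fell and 1 rose, with a median of -0.14 (-0.078 in replicate 1 and -0.18 in replicate 2), and 32.1% were called, against 11.5% of all genes. JUN, a subunit of the AP-1 transcription factor, is encoded by chromosome 1 (minus strand, 59246460 to 59249999) and read 9.17 and 9.15 with siRNA 1, against 10.53 and 10.62 with scramble, a difference of -1.41 (log2, SE 0.073, adjusted p = 0.000605 by limma), a 2.66-fold fall. Both siRNA 1 arrays were nearly equal and lay far below both scramble arrays. DUSP1, a phosphatase that turns off MAP kinases, read 9.26 and 9.12 with siRNA 1, against 9.88 and 9.87 with scramble, a difference of -0.69 (log2, SE 0.072, adjusted p = 0.00363 by limma). KLF10 fell by 0.58, KLF6 by 0.49, ATF3 by 0.46 and NR4A2 by 0.45, all of them transcription factors. BTG2, an antiproliferative gene that p53 also controls, rose by 0.37. The immediate early genes that fell numbered 3 without siRNA 1 replicate 1 and 2 without siRNA 1 replicate 2, and BTG2 was not called in either of these fits.

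A pair of motifs known from such promoters was searched for on both strands in the 20 list members with a promoter sequence. TGACATCA, the variant AP-1 site through which JUN is known to act on its own gene, was present in 3 of 20, against 2.61% of 34943 promoters. TGACGTCA, the cyclic AMP response element, was present in 2 of 20, against 1.84%. Here too the list counts are genes with a match in any promoter and the percentages count single promoters, so no excess can be read from them. The 5 windows are shown because each belongs to a gene that fell with siRNA 1, with JUND at -0.40 named for its motif. Positions are on GRCh38.p14, each sequence reads along its gene's strand, and the motif is in capitals. JUN is chr1:58784087-58784134 (minus strand), ATF3 chr1:212565264-212565311 (plus), KLF6 chr10:3785354-3785401 (minus), DUSP1 chr5:172771293-172771340 (minus) and JUND chr19:18281795-18281842 (minus):
JUN: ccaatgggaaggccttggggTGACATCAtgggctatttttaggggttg
ATF3: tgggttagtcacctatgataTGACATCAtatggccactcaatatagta
KLF6: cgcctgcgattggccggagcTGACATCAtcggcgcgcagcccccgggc
DUSP1: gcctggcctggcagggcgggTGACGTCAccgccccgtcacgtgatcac
JUND: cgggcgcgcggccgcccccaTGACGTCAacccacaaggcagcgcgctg
The first 3 windows hold TGACATCA and the last 2 hold TGACGTCA. A match is a run of letters and no measurement of binding.

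Targets of TGF-beta and BMP signalling, which Smad proteins switch on, showed 6 falls and 0 rises among 23 genes. That is 26.1% of the list, against 11.5% of all genes called, 7.46% lower and 4.05% higher. SMURF1 and SMURF2, ubiquitin ligases that damp the pathway, fell by 0.56 and 0.37, ID4 and ID1, inhibitors of differentiation factors, by 0.53 and 0.40, the ligand gene TGFB1 by 0.49 and the receptor gene TGFBR2 by 0.35. The falls numbered 1 without siRNA 1 replicate 1, 0 without siRNA 1 replicate 2 and 3 without scramble replicate 2. Of 19 YAP and TEAD targets, 2 fell, CRIM1 by 0.56 and FJX1 by 0.44, and 0 rose, a share of 10.5% that lies near that of all genes. Of 16 ERK feedback and PEA3 factor genes, ETV1, a transcription factor of the ETS family, was the only one called, 6.25% of the list (6.28 and 6.40 with siRNA 1, against 5.77 and 5.67 with scramble, a rise of 0.62). The YAP and TEAD falls numbered 0 without siRNA 1 replicate 1 and 0 without siRNA 1 replicate 2, and the ETV1 call was absent without siRNA 1 replicate 2.

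Genes of the amino acid response, which the transcription factor ATF4 switches on when amino acids are short, moved mainly downwards where they passed the test: 12 of 35 fell and 2 rose, with a median of -0.17 (-0.17 in replicate 1 and -0.19 in replicate 2). Called members made up 40% of this list, against 11.5% of all genes. ALDH1L2, a mitochondrial folate enzyme, read 7.75 and 7.70 with siRNA 1, against 8.47 and 8.86 with scramble, a difference of -0.94 (log2, SE 0.12, adjusted p = 0.00635 by limma). The scramble arrays of this gene lay apart from each other, but both stood above both siRNA 1 arrays. SLC6A9, a glycine transporter, fell by 0.79 and SLC1A5, a glutamine transporter, by 0.62. SHMT2 and PHGDH, which make glycine and open serine synthesis, rose by 0.84 (11.22 and 11.18 with siRNA 1, against 10.34 and 10.37 with scramble) and 0.60 (11.89 and 11.89 with siRNA 1, against 11.31 and 11.27 with scramble). The ATF4 genes that fell numbered 3 without siRNA 1 replicate 1, 1 without siRNA 1 replicate 2, 7 without either siRNA 2 array and 6 without scramble replicate 2, while 2 genes of the list rose in each of these fits. Of 25 genes of the unfolded protein response, 6 fell and 1 rose (28%). CREB3L2, a membrane-bound transcription factor, fell by 0.78, HERPUD1, of protein degradation at the endoplasmic reticulum, by 0.60, the response's transcription factor XBP1 by 0.39 and the chaperone gene HYOU1 by 0.35. SEC61B, listed above, was the member that rose. The falls of this list numbered 2 without siRNA 1 replicate 1, 1 without siRNA 1 replicate 2 and 3 without scramble replicate 2.

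The p53 list gave calls in both directions. Of 29 targets of this tumour suppressor, 3 rose and 3 fell, with a median of 0.062, and 20.7% were called, against 11.5% of all genes. ZMAT3, a zinc finger RNA-binding protein, rose by 0.43 (10.01 and 10.04 with siRNA 1, against 9.61 and 9.57 with scramble), BTG2 by 0.37 and TNFRSF10B, a death receptor, by 0.36. TNFRSF10D, a decoy receptor for the same ligand, fell by 0.65 (8.69 and 8.50 with siRNA 1, against 9.25 and 9.24 with scramble), TP53INP1 by 0.37 and the DNA repair gene XPC by 0.31. The rises numbered 0 without siRNA 1 replicate 1, 0 without siRNA 1 replicate 2 and 1 without scramble replicate 2, and the falls 1 without siRNA 1 replicate 1, 0 without siRNA 1 replicate 2, 1 without either siRNA 2 array and 1 without scramble replicate 2.

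Cell cycle genes were split as well. Among 20 G1 cyclin and kinase genes 4 rose and 4 fell, 40% in all, against 11.5% of all genes. The E cyclins, which start DNA replication with CDK2, rose, CCNE2 by 0.69 (10.08 and 10.24 with siRNA 1, against 9.35 and 9.59 with scramble) and CCNE1 by 0.48 (9.94 and 9.91 with siRNA 1, against 9.39 and 9.50 with scramble), as did the pocket protein gene RBL1 by 0.48. CCND2, a D cyclin, fell by 0.59 (9.41 and 9.37 with siRNA 1, against 9.90 and 10.05 with scramble), and its partner kinases CDK6 and CDK4 by 0.58 and 0.30. Of 36 DNA replication genes 4 rose and 4 fell (22.2%), and these rises include CCNE1 and CCNE2, already counted in the G1 list. MCM7 of the replicative helicase rose by 0.40, while GINS4, also of the helicase, fell by 0.39, RRM2, which makes deoxynucleotides, by 0.38 and POLA2 of the primase complex by 0.32. Of 32 G2 and mitosis genes 1 rose, the spindle motor KIF11 at 0.38, and 3 fell, the cyclin CCNA2 at -0.38, PRC1 of the midzone at -0.33 and the centromeric histone CENPA at -0.25, a share of 12.5% that lies near that of all genes. Without siRNA 1 replicate 2, no gene of these 3 lists was called, and without replicate 1 the calls numbered at most 1 per list and direction.

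Transfected RNA duplexes can set off genes of the interferon response and of double-stranded RNA sensing. Of 34 measured, 2 rose and 0 fell (5.88% called, against 11.5% of all genes), with a median of 0.075 and a range from -0.17 to 0.48. The list lay low, with a median level of 6.06 and 6.03 with siRNA 1, against array medians of 7.59 and 7.58. Of its 34 members 24 had a mean of at least 5, and under that level 37 of 2428 genes were called. Its share is thus not comparable with that of all genes. Scramble was a transfected duplex too, so a response common to both cancels out of this difference. EIF2AK2, the sensor kinase PKR, read 10.26 and 10.40 with siRNA 1, against 9.74 and 9.95 with scramble, a difference of 0.48 (adjusted p = 0.0199 by limma), and IFIT5, an RNA-binding protein, read 7.94 and 8.005 with siRNA 1, against 7.54 and 7.57 with scramble, a difference of 0.42 (adjusted p = 0.0115 by limma). Neither was called once either siRNA 1 array was left out. In the RNA silencing machinery 2 of 20 genes rose and 1 fell (15%). MOV10, an RNA helicase that works with Argonaute, read 9.65 and 9.50 with siRNA 1, against 10.32 and 10.16 with scramble, a difference of -0.66 (adjusted p = 0.00685 by limma). TNRC6A, the scaffold that Argonaute recruits, rose by 0.29 and AGO1, an Argonaute, by 0.25. The rises of this list numbered 0 without siRNA 1 replicate 1, 0 without siRNA 1 replicate 2, 0 without either siRNA 2 array, 0 without scramble replicate 1 and 1 without scramble replicate 2, and the MOV10 call was absent without siRNA 1 replicate 2.

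Since the study is about microRNA sponges, known targets of several microRNA families were listed too. The sequences are shown so that families can be told apart by the seed (bases 2 to 8, in capitals), as RefSeq gives them on GRCh38.p14:
hsa-miR-96-5p: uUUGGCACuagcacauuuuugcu
hsa-miR-182-5p: uUUGGCAAugguagaacucacacu
hsa-miR-183-5p: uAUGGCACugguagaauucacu
hsa-miR-708-5p: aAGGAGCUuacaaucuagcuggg
hsa-let-7a-5p: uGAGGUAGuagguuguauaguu
All 5 seeds differ. Of 28 targets of miR-96, miR-182 and miR-183, 5 fell and 0 rose, with a median of -0.069, and 17.9% were called, against 11.5% of all genes. SNAI2, a repressor of epithelial genes, read 10.96 and 10.93 with siRNA 1, against 11.75 and 11.80 with scramble, a difference of -0.83 (log2, SE 0.072, adjusted p = 0.00247 by limma). MET, the receptor of hepatocyte growth factor, fell by 0.55 (8.99 and 8.97 with siRNA 1, against 9.50 and 9.57 with scramble) and RECK, an inhibitor of matrix proteases, by 0.50. The falls numbered 2 without siRNA 1 replicate 1, 1 without siRNA 1 replicate 2 and 3 without scramble replicate 2. Of 17 targets of miR-28 and miR-708, 4 fell and 0 rose (23.5%), with a median of 0.054. Among them BCL6, a transcriptional repressor, fell by 0.52 and the kinase gene AKT2 by 0.28. The falls of that list numbered 1 without siRNA 1 replicate 1, 0 without siRNA 1 replicate 2, 2 without either siRNA 2 array and 2 without scramble replicate 2. Of 27 let-7 targets, 7 fell and 1 rose (29.6%), with a median of -0.12. HMGA2, a chromatin protein of embryonic cells, fell by 0.61 (7.81 and 7.83 with siRNA 1, against 8.32 and 8.53 with scramble), and IGF2BP3 and IGF2BP2, fetal RNA-binding proteins, by 0.43 and 0.34. These falls numbered 1 without siRNA 1 replicate 1 and 0 without siRNA 1 replicate 2, and the 1 rise was absent from both of those fits. Several called genes stand in more than one list, among them CCND2, CDK6, TP53INP1, CCNE1, CCNE2, ATF3, BTG2 and ME1, so the list counts overlap.

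The genes next to LOC400043 were read because lncRNAs can act on their neighbours. LOC400043 lies beside the HOXC cluster, whose genes encode transcription factors of body patterning. On either side the 5 closest genes with a probe set were read, of which HOXC10 and CBX5 rose and the other 8 were not called against scramble. HOXC10 read 8.55 and 8.60 with siRNA 1, against 7.94 and 8.06 with scramble, a difference of 0.57 (log2, SE 0.073, adjusted p = 0.00583 by limma). CBX5, which encodes the heterochromatin protein HP1 alpha, read 12.43 and 12.33 with siRNA 1, against 11.83 and 11.79 with scramble, a difference of 0.57 (log2, SE 0.079, adjusted p = 0.00753 by limma). The nearest genes were HOXC5 before the locus, at 0.17, and SMUG1, a DNA glycosylase, after it, at -0.098. HOXC8 stood at 0.22, HOXC9 at -0.21, the microRNA gene MIR196A2 at -0.15, HNRNPA1 at -0.012, NFE2 at 0.098 and COPZ1 at -0.18. CBX5 differed from siRNA 2 by 0.47 (SE 0.079, adjusted p = 0.00925 by limma), whereas HOXC10 differed from it by 0.018 (95% interval -0.16 to 0.19, adjusted p = 0.917 by limma). HOXC5 was higher than with siRNA 2 by 0.45 (adjusted p = 0.00831 by limma) and HOXC9 differed from it by -0.27 (adjusted p = 0.0473 by limma), and the other 6 were not called in that contrast. Neither HOXC10 nor CBX5 was called against scramble once either siRNA 1 array was left out. Over all 35 measured HOX genes 3 rose and 4 fell (20%, against 11.5% of all genes), among them HOXA7 at 0.77 and its cluster neighbours HOXA3, HOXA5, HOXA2 and HOXA6 at -0.48, -0.41, -0.38 and -0.30. The HOX rises numbered 1 without siRNA 1 replicate 1 and 1 without siRNA 1 replicate 2, and the falls 0 without siRNA 1 replicate 1, 0 without siRNA 1 replicate 2 and 2 without scramble replicate 2.

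**Figure D4:**
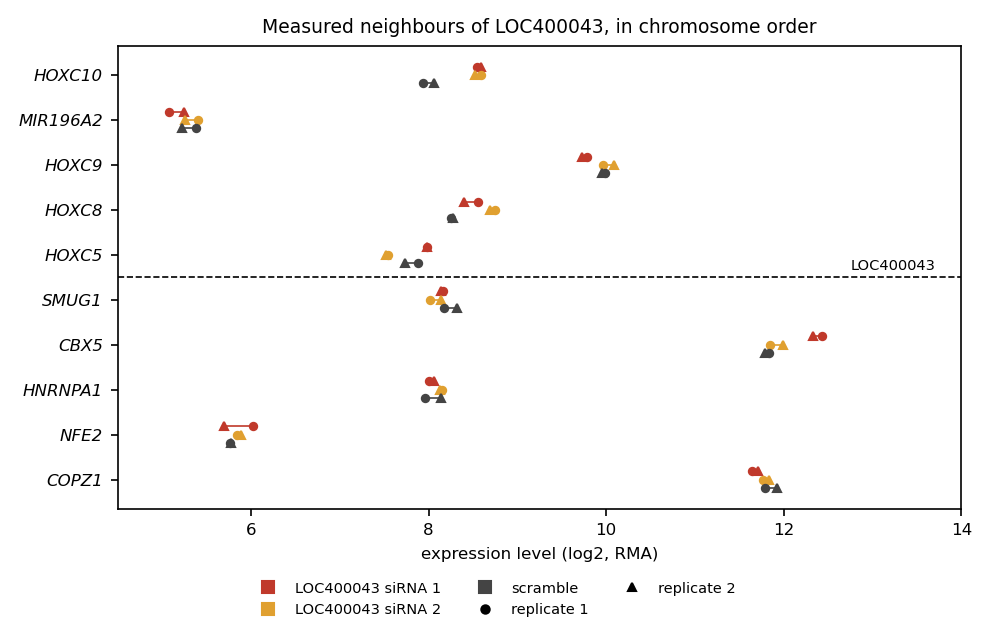
Expression levels (log2, RMA) of the 5 closest measured genes to either side of LOC400043, in chromosome order from top to bottom, with 1 point per array for LOC400043 siRNA 1, LOC400043 siRNA 2 and scramble. HOXC10 and CBX5 show siRNA 1 arrays to the right of both scramble arrays, and the dashed line marks the place of LOC400043.

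Genes of energy metabolism were called in both directions. Of 28 hypoxia and glycolysis genes 3 rose and 4 fell, 25% in all, against 11.5% of all genes. SLC2A3, a glucose transporter, rose by 0.80 (7.96 and 7.95 with siRNA 1, against 7.15 and 7.16 with scramble) and ENO2, an enolase of neurons, by 0.45, while HK2, which traps glucose as its phosphate, fell by 0.63, the phosphofructokinase genes PFKL and PFKP by 0.44 and 0.37 and the growth factor gene VEGFA by 0.42. Of 40 respiratory chain and ATP synthase genes 4 rose and 3 fell (17.5%). After NDUFB5 came NDUFS4 at 0.71 and COX4I1 at 0.46, while CYC1 stood at -0.37, NDUFV1 at -0.35 and SDHA at -0.29, and those 3 falls were lost on leaving out any 1 of the 6 arrays. In the list of tyrosine, branched-chain amino acid and molybdenum cofactor pathways, chosen with earlier results known, 3 of 23 fell and 1 rose (17.4%). Beside FAH these were MOCOS, which activates molybdenum enzymes, with 8.07 and 8.12 with siRNA 1, against 8.99 and 9.18 with scramble, and DLD, a dehydrogenase subunit, at -0.33. BCAT1, the first enzyme of branched-chain amino acid breakdown, rose by 0.45. Without siRNA 1 replicate 1 these 3 lists had at most 2 calls per direction, and without replicate 2 likewise.

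Of 26 NRF2 targets, the antioxidant genes, 3 fell and 1 rose, a share of 15.4% that lies near the 11.5% of all genes, with EPHX1 at -0.49 and HMOX1 at -0.43 among the falls and ME1 as the rise. Of 22 cytosolic heat shock and chaperonin genes 2 fell and 1 rose (13.6%, likewise near that of all genes). HSPB1, a small heat shock protein that also binds actin, read 10.07 and 9.89 with siRNA 1, against 10.86 and 10.77 with scramble, a difference of -0.83 (log2, SE 0.084, adjusted p = 0.00328 by limma), while HSF1, the master regulator, fell by 0.31 and the cochaperone gene DNAJB4 rose by 0.73. None of 36 cytosolic ribosomal protein genes was called by limma, 3 passed an unadjusted p of 0.05, and the list ran from -0.22 to 0.22. Of 15 semaphorin 3 and receptor genes 3 fell and 1 rose (26.7%), the plexins PLXNA3, PLXNA2 and PLXNA1 at -0.42, -0.37 and -0.31, and the ligand gene SEMA3C rose by 0.49 (8.66 and 8.70 with siRNA 1, against 8.01 and 8.36 with scramble). Without siRNA 1 replicate 1 or replicate 2 these 4 lists had at most 1 call per direction.

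Marker genes served to check the cells. HEK-293 cells are known to express neuronal genes beside few genes of mature kidney. Of 14 kidney epithelial markers none was called by limma and none passed an unadjusted p of 0.05. Their median level was 6.29 and 6.30 with siRNA 1, against 6.27 and 6.21 with scramble. UMOD, a gene of the mature tubule, read 5.73 and 5.75 with siRNA 1, against 5.75 and 5.63 with scramble. LRP2, also of this list, read 8.51 and 8.45 with siRNA 1, against 8.33 and 8.33 with scramble. The neuronal markers had a lower median level, 5.92 and 5.87 with siRNA 1, against 5.97 and 5.79 with scramble. The list medians thus do not place neuronal markers above kidney markers, but sums on the linear scale do. With siRNA 1 these were 6731 and 6779 for the neuronal list, against 1498 and 1473 for the kidney list. The neuronal genes UCHL1 (11.32 and 11.27 with siRNA 1) and INA (11.21 and 11.28) lay above LRP2, the highest kidney marker. Of 13 neuronal markers 3 rose and 1 fell (30.8%, against 11.5% of all genes). GAP43, a growth cone protein, rose by 0.84 (7.76 and 7.90 with siRNA 1, against 7.01 and 6.96 with scramble), the synaptic vesicle gene SYP by 0.56 and INA, an intermediate filament, by 0.26, while NEFM, a neurofilament, fell by 0.47 (9.72 and 9.76 with siRNA 1, against 10.18 and 10.24 with scramble). No fibroblast marker of 11 was called by limma and none passed an unadjusted p of 0.05. Of 10 blood and 11 squamous epithelial markers, CD68 and CDKN2A fell, by 0.31 and 0.27, and neither was called once any 1 of the 6 arrays was left out. The neuronal rises numbered 1 without siRNA 1 replicate 1, and the NEFM fall was not called once either siRNA 1 array was left out. The tables carry no detection calls, so presence or absence of a marker cannot be read from them.

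siRNA 1 was then set directly against siRNA 2, a contrast from which the scramble arrays cancel out. Relative to siRNA 2, 1779 genes (9.63%) were higher and 1386 (7.5%) lower with siRNA 1 (adjusted p under 0.05 by limma, 17.1% in all). With arrays centred on their medians the split turned round, with 1386 higher and 1673 lower. Leaving out 1 array of either siRNA left between 514 and 793 genes higher and between 475 and 606 lower. JUN differed by -1.99 (SE 0.073, adjusted p = 0.000157 by limma), CNN2 by -1.85 (SE 0.073, adjusted p = 0.000178 by limma), SLC4A8 by 1.78 (SE 0.074, adjusted p = 0.000178 by limma), OSTN by -1.74 (SE 0.12, adjusted p = 0.000671 by limma), SYT11 by 1.71 (SE 0.089, adjusted p = 0.000309 by limma) and FLNA by -1.66 (SE 0.084, adjusted p = 0.000309 by limma). Of the 12 largest falls against scramble, 11 were also lower than with siRNA 2, and FAH was higher than with siRNA 2, by 0.33 (adjusted p = 0.0187 by limma). The choice of these genes by the same siRNA 1 arrays favours such a difference. Against scramble, FLNA stood at -2.02 with siRNA 1 and -0.36 with siRNA 2, AP1B1 at -1.53 and -0.13, and SLC4A8 at 1.62 and -0.16, values that share the scramble arrays.

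Some leading genes did not differ between the siRNAs beyond their spread. The difference between siRNA 1 and siRNA 2 was 0.12 for RNF167 (95% interval -0.045 to 0.28), 0.037 for SEC61B (-0.19 to 0.26) and -0.012 for DNAJC15 (-0.30 to 0.28). The intervals of RNF167 and SEC61B exclude differences as large as their changes against scramble, 1.30 and 0.97. MOV10 differed by 0.029 (-0.18 to 0.24) and HMGA2 by -0.0032 (-0.20 to 0.20).

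By list, more ATF4 and immediate early genes were lower than higher with siRNA 1 relative to siRNA 2, and more p53 targets were higher than lower. Of 35 ATF4 genes 22 were lower and 0 higher with siRNA 1, of 28 immediate early genes 17 lower and 2 higher, and of 29 p53 targets 19 higher and 2 lower, against 9.63% higher and 7.5% lower over all genes. With arrays centred on their medians, the setting that turned the split over all genes, these 3 lists gave 22 lower, 17 lower and 19 higher. With 1 array of either siRNA left out they gave 12 to 15 lower, 11 to 13 lower and 14 to 16 higher. Their medians against scramble were -0.17 with siRNA 1 and 0.23 with siRNA 2 for ATF4 genes, -0.14 and 0.31 for immediate early genes, and 0.062 and -0.42 for p53 targets. The HOX genes were lower in 13 and higher in 1 of 35, and the TGF-beta and BMP targets in 9 and 2 of 23. With 1 array of either siRNA left out, the lower members numbered 5 to 7 and 3 to 4. Cholesterol genes differed in 4 lower and 2 higher of 24, with medians against scramble of -0.23 with siRNA 1 and -0.21 with siRNA 2, and with 1 array of either siRNA left out they gave 1 lower and 1 higher. ANXA1 showed the largest single difference among the named genes. It read 7.40 and 7.33 with siRNA 1, against 10.86 and 10.90 with siRNA 2, a difference of -3.52 (SE 0.078, adjusted p = 2.07e-05 by limma).

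**Figure D5:**
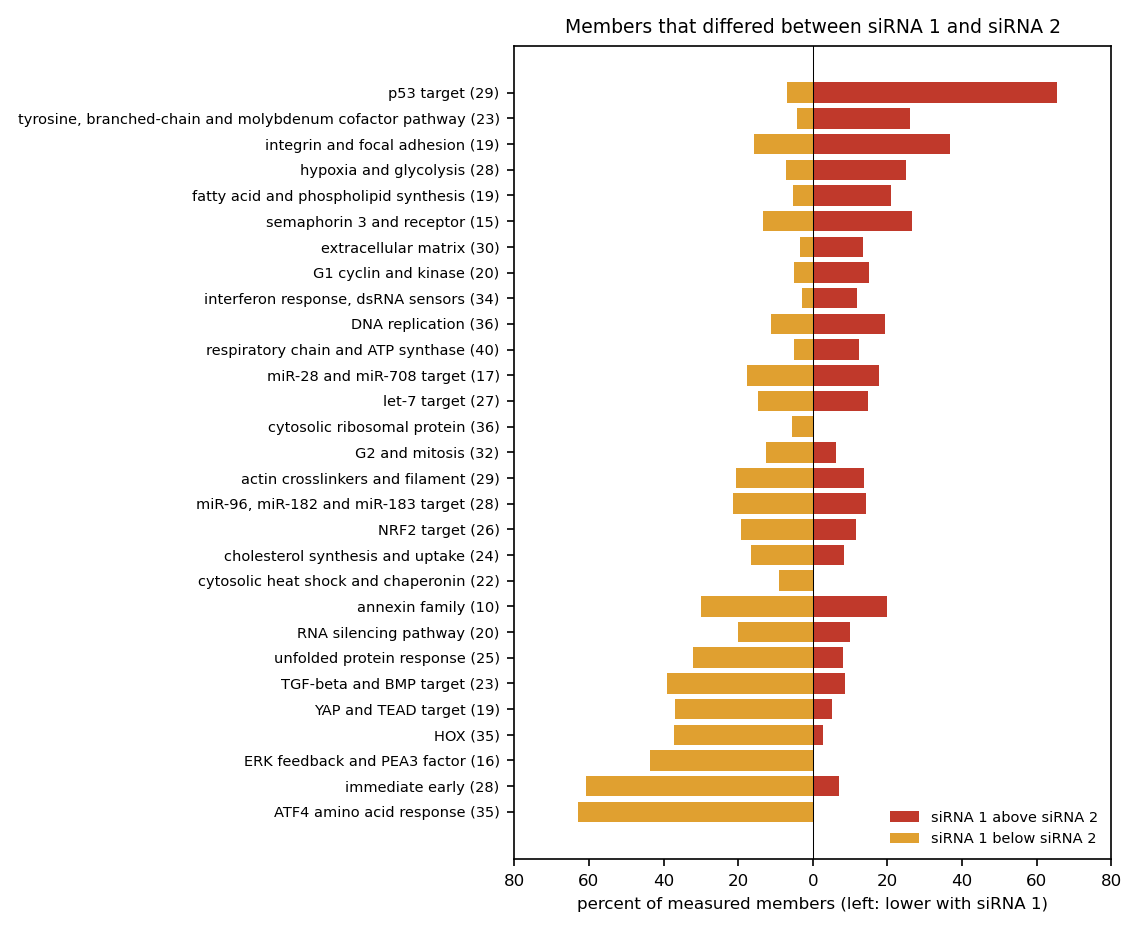
Percent of the measured members of 29 gene lists (rows, with the number measured) that differed in the direct limma contrast of siRNA 1 and siRNA 2, to the right where siRNA 1 was higher and to the left where it was lower. The p53 list has 19 of 29 members to the right, the ATF4 list 22 of 35 to the left and the immediate early list 17 of 28 to the left.

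The siRNAs against LINC00324 were measured against the same scramble arrays but normalized apart, so their values stand beside those of LOC400043 siRNA 1 without a test. FLNA stood at -2.02 with LOC400043 siRNA 1, against 0.0099 and -0.30 with LINC00324 siRNA 1 and siRNA 2. For AP2B1 the values were -1.24, against -0.084 and -0.13, for SYT11 2.02, against -0.0093 and -0.61, and for JUN -1.41, against -0.058 and -0.54. With LOC400043 siRNA 1, set against LINC00324 siRNA 1 and siRNA 2, OSTN stood at -1.92, against -1.57 and -2.49, RNF167 at 1.30, against 1.11 and 1.34, and NDUFB5 at 1.37, against 1.09 and 1.21. CA2 stood at 1.11, against 1.20 and 1.20, and SHMT2 at 0.84, against 1.27 and 1.11. With LOC400043 siRNA 2 the values of RNF167, NDUFB5 and SHMT2 were 1.19, 1.16 and 0.82, whereas those of OSTN and CA2 were -0.18 and 0.33, and CA2 differed between the LOC400043 siRNAs (siRNA 1 minus siRNA 2) by 0.78 (adjusted p = 0.000935 by limma), as OSTN did above. All these values share the scramble arrays, and the part of those arrays in them was not tested.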

How the data were processed

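The authors deposited log2 values made with RMA, a background correction, quantile normalization and probe summary in 1 procedure, and used limma, per the submitters' processing notes. Tool versions and a genome build were not given in the sources used here. Members and gene lists were chosen with earlier results of these data known. The 18480 probe sets were named by RefSeq accession (17196), symbol (422) or former symbol (321), and 541 kept the table's name. A two-sided limma model (3.58.1, under R 4.3.3, eBayes without trend) was fitted to the 6 arrays of the LOC400043 table as 3 groups, leaving 3 residual degrees of freedom. Benjamini-Hochberg adjustment covered all 18480 genes, and a gene is called, written as rose or fell, at an adjusted p under 0.05, without a filter on low values. Named are the 12 largest rises and falls, up to 6 called members per list (2 where none), 5 neighbours per side, filamins and annexins; 5 genes that this rule names are not reported here by name. The 34 lists (29 pathway, 5 marker) hold 842 entries, 804 of them measured. The p-values rest on the spread between the 2 arrays of a group, pooled over the 3 groups, siRNA 2 included. The eBayes step draws each gene's spread towards a value estimated from all genes, so small p-values lean on that shared value. Having 2 arrays per group limits all precision, and an exact permutation test of 2 against 2 arrays cannot go below 0.333. In 20 simulations of the siRNA 1 and scramble comparison with 200 changed genes among 18480, 42.4% were recovered at a log2 change of 0.5, 93.7% at 1 and 99.5% at 2, with 5.25% false calls. The simulated noise was independent between arrays, equal in all groups and without any siRNA 2 change. The real replicate SD was 0.13 with siRNA 1 and 0.19 with scramble. The simulated shares therefore hold for that setting and give no rate of false calls in these arrays. The series-wide table joins 2 separate normalizations (scramble differs by a median of 0.12 between them), so a test across all 10 arrays was not run. Alternatives were a fit of 4 arrays, a replicate block, a filter, an intensity trend, a second quantile normalization, centring, and leaving out each array.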

Additional observations from a re-analysis of the deposited data

Results flagged for a closer look

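The named genes below were called in opposite directions against scramble with LOC400043 siRNA 1 and siRNA 2, and siRNA 1 also differed from siRNA 2 in the direct limma contrast, whose value (log2, siRNA 1 minus siRNA 2) is given. The differences from scramble of the siRNAs share the scramble arrays. There are 19 such genes among those named, and no explanation of their difference was tested. They are the smaller part: of the 2128 genes called with siRNA 1, 1127 were called in the same direction with siRNA 2 and 124 in opposite directions. Over all 18480 genes, 4016 (21.7%) were called with siRNA 2, and the shared scramble arrays favour calls in the same direction.

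Lower with siRNA 1 and higher with siRNA 2 were 11 of them. ANXA1 differed by -3.52 (adjusted p = 2.07e-05 by limma), with -0.36 against scramble for siRNA 1 and 3.16 for siRNA 2. JUN differed by -1.99 (adjusted p = 0.000157 by limma), CNN2 by -1.85 (adjusted p = 0.000178 by limma), ATF3 by -1.38 (adjusted p = 0.000309 by limma) and VIM by -1.22 (adjusted p = 0.000362 by limma). The differences of MET, HERPUD1, BCL6 and HMOX1 were -1.13, -1.02, -0.98 and -0.89, and those of the HOX genes HOXA5 and HOXA6 were -0.83 and -0.73.

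Higher with siRNA 1 and lower with siRNA 2 were the other 8. BEX1 differed by 1.70 (adjusted p = 0.000278 by limma), with 1.10 against scramble for siRNA 1 and -0.60 for siRNA 2, and ZMAT3 by 1.68 (adjusted p = 0.000309 by limma), with 0.43 and -1.25. CAV1 differed by 1.17 (adjusted p = 0.000362 by limma). The cyclin gene CCNE1 and the death receptor gene TNFRSF10B differed by 0.93 and 0.75, the neuronal genes SYP and INA by 0.96 and 0.68, and AGO1 by 0.69.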

How the results depend on the processing

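Fitted to the siRNA 1 and scramble arrays alone, 427 genes rose and 892 fell, and with an intensity trend 1333 rose and 2146 fell, in place of 749 and 1379; with 1 array left out the counts ran from 80 to 955 and from 177 to 1355. For siRNA 1 against siRNA 2, leaving out 1 array gave 514 to 2087 genes higher and 475 to 1593 lower, in place of 1779 and 1386. The cause of these shifts was not tested, but a left-out array also lowers the residual degrees of freedom. All other settings stayed within 1.5 times those counts: for siRNA 1 against scramble 1103 and 1719 with the replicate block, 842 and 1547 for genes with a mean of at least 5, 1070 and 1351 after a second quantile normalization and 886 and 1177 after centring. The replicate block gave 2138 and 1639 for siRNA 1 against siRNA 2. Whether equal replicate numbers mark pairs was not established. Replicate differences correlated at 0.09 (siRNA 1 with siRNA 2), 0.23 (siRNA 1 with scramble) and 0.37 (siRNA 2 with scramble), all positive. Differences from the scramble array of the same number correlated at 0.67, and at 0.53 with the scramble arrays exchanged. The main fit has no replicate term, and the replicate block has one. Of 186 named genes none reversed a called direction; 32 calls ended in the fit of 4 arrays, 0 with the block, the filter or the trend, 5 after the second quantile normalization, 4 after centring, and 23 to 112 with 1 array left out. The series-wide values, planned as an alternative, could not be used because their scramble arrays come from another normalization, and the planned contrast with the LINC00324 siRNAs was not run for that reason.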

Other observations

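Beside the genes flagged above, other named genes also lay farther from siRNA 2 than from scramble with siRNA 1, and some of them follow. NDUFV1, the flavoprotein subunit of complex I, read 10.69 and 10.57 with siRNA 1, against 9.19 and 9.31 with siRNA 2, a difference of 1.38 (adjusted p = 0.00032 by limma). LRP2, the endocytic receptor megalin of the kidney tubule, read 8.51 and 8.45 with siRNA 1, against 7.42 and 7.49 with siRNA 2, a difference of 1.02 (adjusted p = 0.000463 by limma). SEMA3C read 8.66 and 8.70 with siRNA 1, against 10.21 and 10.25 with siRNA 2, a difference of -1.55 (adjusted p = 0.000766 by limma), and ETV1 differed by -1.36 (adjusted p = 0.000423 by limma). Against scramble these genes stood at -0.35, 0.15, 0.49 and 0.62 with siRNA 1, and all but LRP2 were called. Of 2428 genes with a mean log2 value under 5 over the 6 arrays, 37 were called between siRNA 1 and scramble.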
